A study of Mus musculus with 12 samples.

Results

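The genes for making fatty acids from carbohydrate were followed through white fat, brown fat, liver and muscle of mice that were fed a high-fat diet and given narciclasine. These were the 10 symbols Acly, Acaca, Fasn, Me1, Elovl6, Scd1, Scd2, Srebf1, Mlxipl and Thrsp, chosen by name for their place in the pathway, out of 22276 symbols in the expression table. All 10 were listed, with a value in each of the 12 libraries. The question put to the data was whether Fasn and Scd1 moved together with the other members in each organ, under the diet and under the drug.

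Male C57BL/6J mice were studied at 17 wk of age, in 3 groups. NCD-veh mice ate a normal chow diet and received the vehicle (veh), a hydroxypropyl cyclodextrin solution. HFD-veh mice ate a high-fat diet (HFD) from 8 wk of age and received the same vehicle. HFD-ncls mice ate the HFD and received narciclasine (ncls), a plant alkaloid, at 1 mg/kg by weekly oral gavage from 10 wk of age, which came to 7 wk. RNA of white fat (WAT, for adipose tissue), brown fat (BAT), liver and quadriceps muscle was sequenced, with 1 library for each organ and group. How many mice went into a library, and whether the mice had been fed or fasted when tissue was taken, are not given in the sources used here. With 1 library per group no difference had a replicate check, no test was made, and each value below describes libraries rather than groups of mice.

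Lipogenesis starts with citrate that leaves the mitochondrion and is cleaved by Acly to cytosolic acetyl-CoA. Acaca, the acetyl-CoA carboxylase of the cytosol, turns it into malonyl-CoA, Fasn builds palmitate from it with NADPH that Me1 helps to supply, Elovl6 lengthens palmitate, and the Scd enzymes put in a double bond. In liver and fat the genes are known to be driven by insulin through SREBP-1c (from Srebf1) and by sugar through ChREBP (from Mlxipl), and Thrsp (Spot 14) is a small protein of lipogenic tissues that responds to the same cues.

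The regulators act on promoters, so the bases upstream of the start sites are shown for the gene the question is about (Fasn), for the member with the highest fold under the diet (Thrsp), and for the member window that held an exact SREBP motif (Mlxipl). Thrsp was added after its values were seen. Promoter windows from RefSeq on GRCm38.p6, which is not the build of the expression data, were held for 8 of the 10 members, with 12 start sites among them. Each line gives the 250 bases before the start site, 5′ to 3′ on the strand of the gene. Capitals mark exact matches on either strand to the SREBP motif TCACNCCAC or to the NF-Y motif CCAAT.

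Fasn, chr11:120824548-120824797, minus strand: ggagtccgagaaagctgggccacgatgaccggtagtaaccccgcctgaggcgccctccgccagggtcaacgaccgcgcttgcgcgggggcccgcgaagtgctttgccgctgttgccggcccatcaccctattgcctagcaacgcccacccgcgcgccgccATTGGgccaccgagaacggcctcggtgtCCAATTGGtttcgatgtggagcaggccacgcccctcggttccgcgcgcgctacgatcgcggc
Thrsp, chr7:97417551-97417800, minus strand: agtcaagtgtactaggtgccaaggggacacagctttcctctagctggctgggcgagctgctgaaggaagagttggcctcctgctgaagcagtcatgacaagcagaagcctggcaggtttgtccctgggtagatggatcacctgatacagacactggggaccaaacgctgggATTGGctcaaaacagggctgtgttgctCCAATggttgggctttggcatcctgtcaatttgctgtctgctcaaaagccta
Mlxipl, chr5:135106641-135106890, plus strand: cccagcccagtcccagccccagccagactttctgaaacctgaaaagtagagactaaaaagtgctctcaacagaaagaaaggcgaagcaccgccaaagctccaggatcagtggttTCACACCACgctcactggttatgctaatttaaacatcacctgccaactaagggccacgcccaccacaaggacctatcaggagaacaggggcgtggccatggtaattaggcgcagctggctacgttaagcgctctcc

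Fasn held 3 CCAAT matches, 2 of which overlapped in 1 run of capitals, and Thrsp held 2. CCAAT was found in 7 of the 12 member windows and in 37.4% of all 32851 windows of the same length, which also took in 50 bases after the start site. TCACNCCAC was found in 1 of the 12 member windows, that of Mlxipl, where it began at position -136, and in 1.24% of all windows. The E-box CACGTG was found in 1 of the 12 member windows, at another start site of Mlxipl, and in 7.15% of all windows. The Sp1 motif GGGCGG was found in 5 of the 12 and in 35.7% of all. A match is a description of letters and not evidence of binding.

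The unit throughout is FPKM, the fragment count scaled by transcript length and by library size, so levels may be set side by side between genes. Changes are log2 ratios with 0.1 FPKM added to both levels, which understates the change of low genes, and folds are on the same scale. Where 3 values of an organ are listed together, they follow the order NCD-veh, HFD-veh, HFD-ncls. Counts of genes past 2-fold take genes with at least 1 FPKM in at least 1 of the libraries compared. Read totals were not used here. Steps in the low values put the depth between about 19750000 fragments (HFD-ncls WAT) and about 28000000 (HFD-veh muscle).

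The markers of each organ were high in its libraries, but some libraries also carried markers of another organ. The 10 hepatocyte markers summed to 565 FPKM in HFD-veh muscle, against 2.31 in NCD-veh and 1.02 in HFD-ncls muscle, and to 7.02, 58.5 and 220 FPKM in WAT of the 3 groups. The 10 skeletal muscle markers summed to 63.6 FPKM in HFD-veh liver, against 2.18 and 3.15 in the other livers, and to 2009, 821 and 118 FPKM in BAT of the 3 groups. Acta1 led the muscle markers there, at 478, 217 and 26.8 FPKM. No gene of these lists was at 0 in HFD-veh muscle, in HFD-veh liver or in any BAT library respectively. In bulk tissue, fewer cells of a type and less RNA per cell cannot be told apart.

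**Figure D1:**
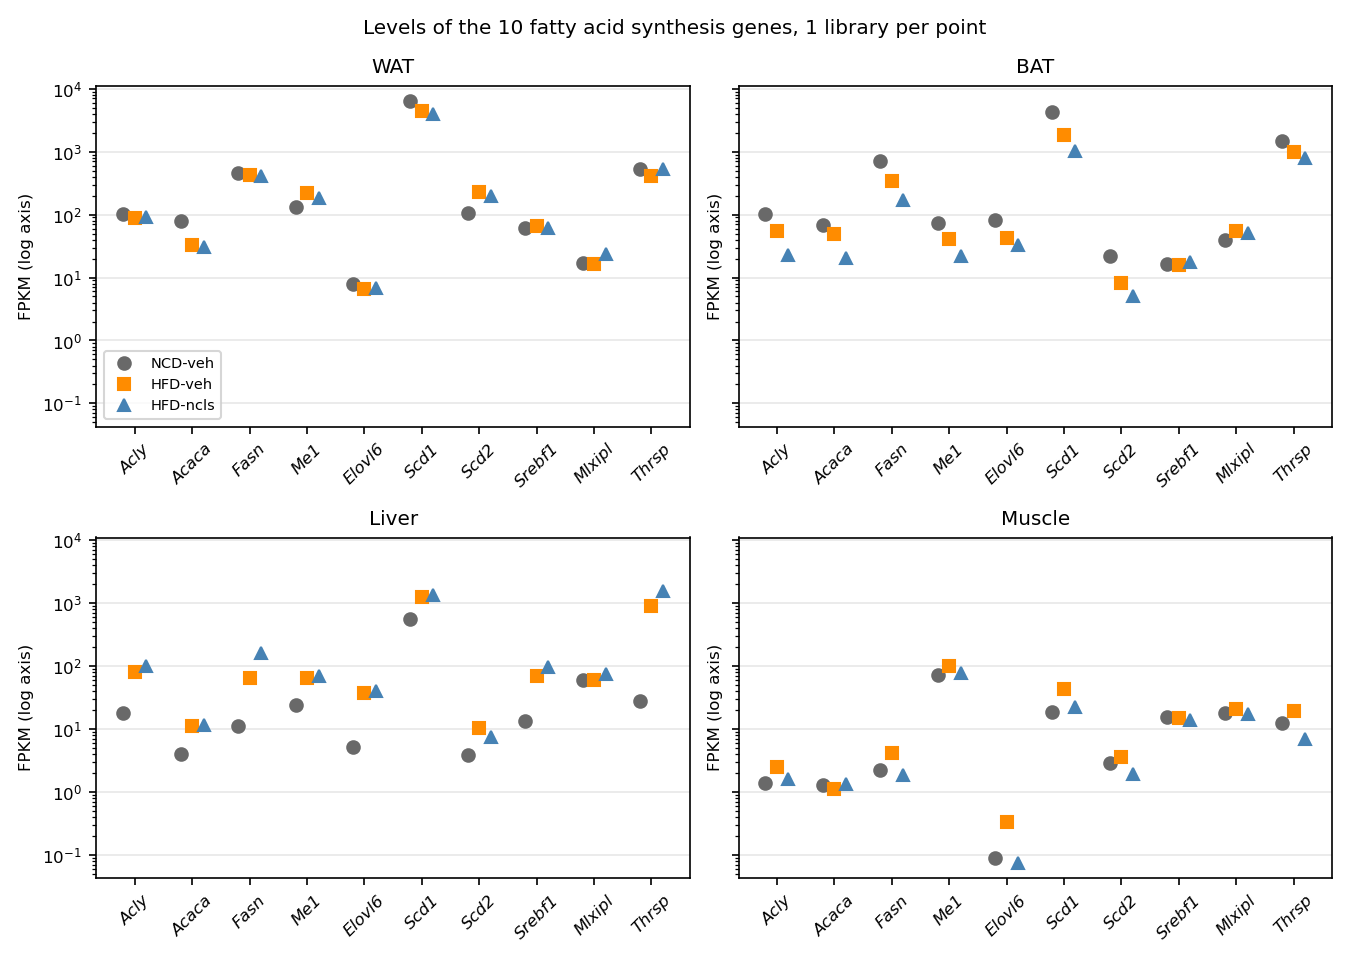
FPKM (log axis) of the 10 members in each organ; each point is 1 library, with grey circles for NCD-veh, orange squares for HFD-veh and blue triangles for HFD-ncls. In liver 9 members had their NCD-veh point below both HFD points, and in BAT most members stepped down from NCD-veh to HFD-veh to HFD-ncls.

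Scd1, the main stearoyl-CoA desaturase of fat and liver, was the highest member in WAT and BAT of every group and in NCD-veh and HFD-veh liver. Its share of the members' summed FPKM was 80.8% in NCD-veh WAT, 62.2% in NCD-veh BAT and 76.9% in NCD-veh liver. Thrsp was highest in HFD-ncls liver, with 45.3% of the sum. Muscle had another leader in all 3 groups: Me1, at 50.1%, 47.5% and 53.4% of the sum in the 3 groups. The members summed to 7764 FPKM in NCD-veh WAT, 6856 FPKM in NCD-veh BAT, 730.1 FPKM in NCD-veh liver and 145 FPKM in NCD-veh muscle.

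On the mm9 build of the data, Fasn lies at chr11:120667254-120685492 (minus strand), and Scd1 at chr19:44468941-44482199 (minus strand) near Scd2 at chr19:44368166-44381354 (plus strand). Averaged over the 3 groups, the organs ranked WAT, BAT, liver and muscle for Fasn, Scd1, Scd2 and Acaca. Muscle was lowest for 9 of the 10 members, and its libraries did not overlap with those of the next organ except for Mlxipl, whose WAT and muscle ranges overlapped. For Srebf1, NCD-veh liver (13.3 FPKM) stood below every muscle library. Muscle was not lowest for Me1, for which WAT was highest and muscle came next on average, above liver and BAT, which overlapped. Me1 in NCD-veh BAT (74.9 FPKM) stood above NCD-veh muscle (72.6 FPKM). Elovl6 and Thrsp were highest in BAT and Mlxipl in liver. The WAT and BAT ranges overlapped for Fasn, Scd1, Acaca and Acly, and the BAT and liver ranges for all members but Fasn, Acaca and Mlxipl.

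In liver nearly the whole set stood higher with the HFD. In HFD-veh against NCD-veh liver, 9 of 10 members were more than 2-fold higher and none was more than 2-fold lower, where 2.86% of the 10016 genes compared were higher by that much and 2.27% lower. The median log2 change of the members was 1.78, against 0.04 over all genes. Mlxipl was the exception.

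Acly, which makes the acetyl-CoA, stood at 18.3 FPKM in NCD-veh liver, 79.7 with HFD-veh and 102 with HFD-ncls. Acaca stood at 4.0, 11 and 11.6 FPKM in the same order. Both were lowest on chow, and the difference between the HFD livers was small beside that from chow: Acly was 4.34-fold and Acaca 2.70-fold higher in HFD-veh than in NCD-veh liver. Fasn stood at 11.3 FPKM in NCD-veh liver, 65.2 with HFD-veh and 162 with HFD-ncls. It was 5.70-fold higher with the HFD and a further 2.49-fold higher with ncls, so that it stepped up at each stage. Me1, a source of NADPH, stood at 24.4, 65.5 and 69.1 FPKM and followed Acaca rather than Fasn.

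Elovl6, the elongase of palmitate, stood at 5.20 FPKM in NCD-veh liver, 37.5 with HFD-veh and 40.7 with HFD-ncls, a 7.10-fold difference between the vehicle groups. Scd1 stood at 561, 1271 and 1333 FPKM, a 2.26-fold difference. Scd2, the desaturase best known from brain and young tissue, stood at 3.88, 10.3 and 7.42 FPKM and was 2.62-fold higher in HFD-veh than in NCD-veh. The elongase thus differed by more than the desaturase that takes its product, and the HFD livers differed by at most 0.12 on the log2 scale for Elovl6 and Scd1.

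Among the regulators, Srebf1 stood at 13.3 FPKM in NCD-veh liver, 69.9 with HFD-veh and 95.0 with HFD-ncls, a 5.22-fold difference with the HFD. Mlxipl stood at 61.1, 60.6 and 74.6 FPKM, and its vehicle livers differed by 0.01 on the log2 scale. The factors known for insulin and for sugar therefore parted in their RNA levels. Thrsp stood at 27.4, 887 and 1570.2 FPKM. It was 32.3-fold higher in HFD-veh than in NCD-veh liver, rank 11 from the top of 10016 genes.

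Fasn had rank 35 and Scd1 rank 202 among these genes. Against the median log2 change of the 8 other members, 1.78, Fasn lay 0.74 above and Scd1 0.60 below, so that they moved in the direction of 7 of the 8 others but not by the same amount. The ratio of Fasn to Acaca FPKM went from 2.84 in NCD-veh liver to 5.93 with HFD-veh and 14.0 with HFD-ncls.

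With ncls on the HFD, liver Fasn stood apart from the set. It was the 1 member of 10 that was more than 2-fold higher and none was more than 2-fold lower, where 1% of 9956 genes were higher by that much and 1.31% lower. Its log2 change was 1.31 (rank 47 from the top), against a median of 0.21 for the 8 others, a gap of 1.11. Thrsp came next with a log2 change of 0.82, followed by Srebf1 with 0.44, Acly with 0.36 and Mlxipl with 0.30. Elovl6, Me1, Acaca and Scd1 lay between 0.07 and 0.12, and Scd2 at -0.47. Scd1 therefore did not share the difference seen in Fasn, at 1271 against 1333 FPKM.

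The muscle markers that summed to 63.6 FPKM in HFD-veh liver summed to 101104 FPKM in HFD-veh muscle, where no member other than Me1 stood above 43.2 FPKM. Their part in the liver differences was not tested.

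**Figure D2:**
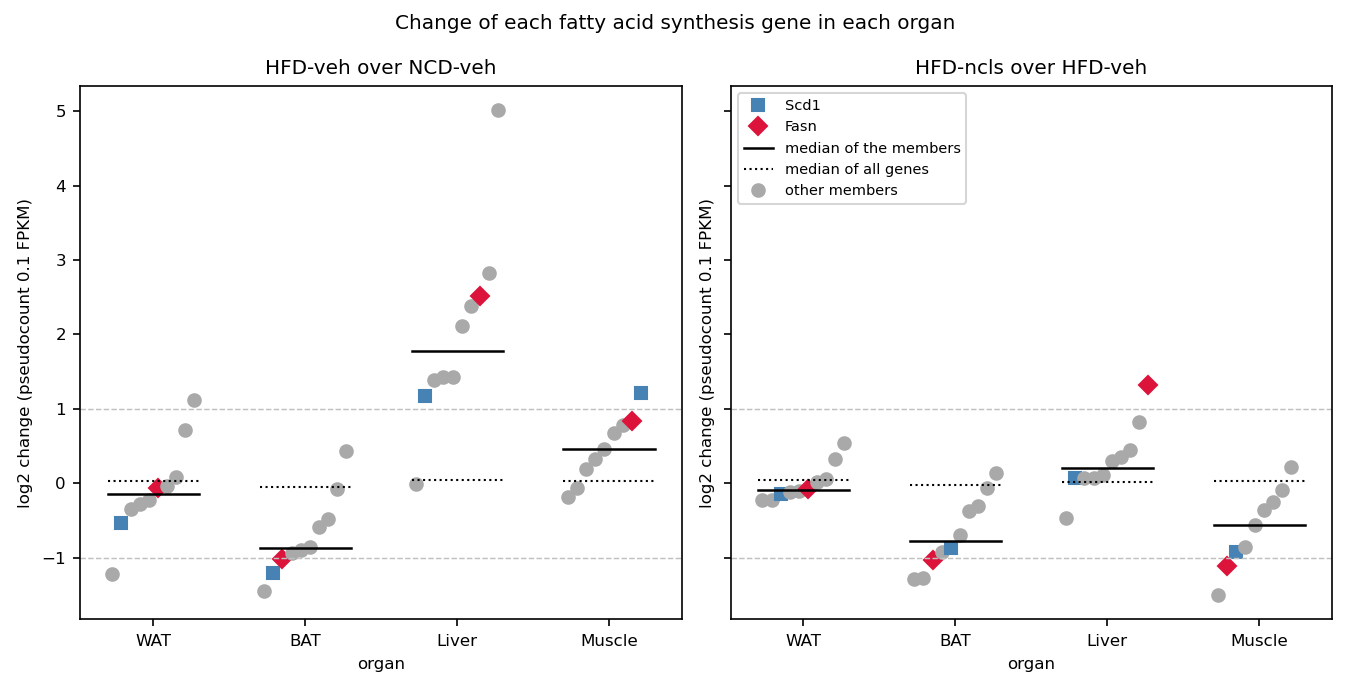
Log2 change of each member (pseudocount 0.1 FPKM) in 4 organs for HFD-veh over NCD-veh (left) and HFD-ncls over HFD-veh (right); red diamonds are Fasn, blue squares Scd1, grey points the other members, solid bars the members' median, dotted bars the median of all genes and dashed lines 2-fold. Fasn lay above all other members in liver with ncls, at 1.31, and the members' median lay at 1.78 in liver and -0.87 in BAT with the diet.

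BAT showed the opposite direction to liver with the diet. In HFD-veh against NCD-veh BAT, 9 of 10 members were lower and 3 (Scd2, Scd1 and Fasn) were more than 2-fold lower, with none more than 2-fold higher, where 2.01% of 10444 genes were lower by that much and 2.28% higher. The members' median log2 change was -0.87, against -0.04 over all genes, of which 44.7% were higher. Fasn was close to the 2-fold line, at -1.02, and stood at -0.98 after rescaling to a median change of 0. With ncls the levels of most members were lower again.

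Acly stood at 101 FPKM in NCD-veh BAT, 54.6 with HFD-veh and 22.6 with HFD-ncls. Acaca stood at 68.9, 49.4 and 20.2 FPKM. Fasn stood at 705 FPKM in NCD-veh BAT, 348 with HFD-veh and 171 with HFD-ncls. These enzymes, which carry carbon from citrate to palmitate, were each highest on chow and lowest with ncls, and the log2 step of Fasn was as large with the diet (-1.02) as with ncls (-1.03). Me1 stood at 74.9, 41.5 and 22.0 FPKM and went the same way.

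Elovl6 stood at 82.2, 43.0 and 33.2 FPKM in BAT of the 3 groups. Scd1 stood at 4265, 1855 and 1020.1 FPKM. Scd2 stood at 22.4, 8.14 and 5.0 FPKM. Scd2 had the largest log2 change of the members with the diet, -1.45, but was under 1% of the summed Scd1 and Scd2 level in each BAT library. Reads that fit more than 1 gene of the Scd family may have been divided among them, so changes of Scd2 this far below Scd1 are uncertain.

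Srebf1 and Mlxipl did not follow the enzymes in BAT. Srebf1 stood at 16.7, 15.9 and 17.4 FPKM, within a log2 difference of 0.14 at each step. Mlxipl stood at 39.9, 54.1 and 51.8 FPKM and was the 1 member higher with the diet, by 0.44 on the log2 scale. Thrsp stood at 1480.2, 989 and 801 FPKM and went with the enzymes, by -0.58 with the diet and -0.30 with ncls.

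In HFD-ncls against HFD-veh BAT, 3 of 10 members (Acaca, Acly and Fasn) were more than 2-fold lower and none was more than 2-fold higher, where 1.7% of 10331 genes were lower by that much and 0.261% higher. The members' median was -0.78, against -0.02 over all genes. Acaca was 2.45-fold, Acly 2.41-fold and Fasn 2.04-fold lower, while Scd1 was 1.82-fold and Elovl6 1.29-fold lower. Fasn and Scd1 lay 0.49 and 0.33 below the median of the 8 others, and 7 of those 8 had the same sign. Side by side with the NCD-veh library, the HFD-ncls BAT library was 4.13-fold lower in Fasn, 4.18-fold lower in Scd1 and 4.47-fold lower in Acly, and 7 of the 10 members were more than 2-fold lower, where 2.74% of 10365 genes were.

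The skeletal muscle markers also stepped down over the BAT libraries, and all 10 of them were more than 2-fold lower with ncls than in HFD-veh. Their level amounted to a muscle RNA share of 1.97%, 0.779% and 0.112% in BAT of the 3 groups. With that share of the muscle level subtracted, the members' median was -0.87 with the diet and -0.78 with ncls, as without the subtraction. The subtraction could hardly move them, because at most 1.97% of the muscle levels is small beside the members' BAT levels. The 5 brown adipocyte markers, led by Cox8b, summed to 8207, 9119 and 10112 FPKM in the same order, but 2 of the 5 were lower at each step and Dio2 was lower by 1.56 on the log2 scale with ncls. Of the 8 adipocyte markers in BAT, 6 were lower and 2 higher with the diet, with a median of -0.39. Retn stood at -1.91, Cfd at -1.02 and Lep at 2.44. With ncls 5 of the 8 were higher and 3 lower, with a median of 0.07. The macrophage markers summed to 35.4, 51.2 and 31.0 FPKM in BAT. All 3 of them that were compared were higher with the diet, and all 3 were lower with ncls, with a median of -0.72 and Cd68 at -1.78. The part of these cell types in the BAT differences was not tested.

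In WAT the members did not move as a set. With the diet 3 were higher and 7 lower, 1 (Scd2) was more than 2-fold higher and 1 (Acaca) more than 2-fold lower, where 5.24% of 12208 genes were higher by that much and 3.87% lower. The members' median log2 change was -0.15, against 0.03 over all genes, of which 52.7% were higher.

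Fasn stood at 453, 432 and 412 FPKM in WAT of the 3 groups, a change of -0.07 at each step. Acaca, the step before it, stood at 77.8 FPKM in NCD-veh WAT, 33.5 with HFD-veh and 31.0 with HFD-ncls. These neighbours in the pathway thus parted with the diet: Acaca was 2.32-fold lower, and the ratio of Fasn to Acaca FPKM went from 5.82 to 12.9. Acly stood at 104, 88.7 and 90.2 FPKM. Me1 stood at 131 FPKM in NCD-veh WAT, 217 with HFD-veh and 186 with HFD-ncls, higher on both HFD arms.

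The desaturases went in opposite directions in WAT. Scd1 stood at 6275 FPKM in NCD-veh WAT, 4356 with HFD-veh and 3929.9 with HFD-ncls. Scd2 stood at 106 FPKM in NCD-veh WAT, 231 with HFD-veh and 197 with HFD-ncls. Scd1 was 1.44-fold lower and Scd2 2.18-fold higher with the diet, and the part of Scd1 in their sum went from 98.3% to 95.0%, with 95.2% in HFD-ncls. Elovl6, low in white fat, stood at 7.96, 6.56 and 6.86 FPKM.

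Srebf1 stood at 61.9, 65.9 and 61.7 FPKM in WAT. Thrsp stood at 531, 418 and 525 FPKM. Mlxipl stood at 16.7, 16.4 and 24.0 FPKM, and its log2 change of 0.55 was the highest of the members with ncls.

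With ncls no member of 10 was past 2-fold in WAT in either direction, where 1.49% of 12152 genes were more than 2-fold higher and 0.214% lower. The members ranged from -0.23 (Scd2) to 0.55 (Mlxipl) with a median of -0.08, against 0.04 over all genes. Fasn and Scd1 lay within 0.11 of the median of the others. The liver RNA share estimated from the 9 hepatocyte markers with a liver value was 0.00233%, 0.0639% and 0.227% in WAT of the 3 groups, and the liver part it implied was at most 1.35% of any member's WAT level.

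Muscle held low levels of Thrsp and of the pathway enzymes other than Me1. Mlxipl in muscle was near its WAT level, and Srebf1 was near, though below, its BAT level. With the diet 7 of the 9 members compared were higher and 1 (Scd1) was more than 2-fold higher, with none more than 2-fold lower, where 3.14% of 9587 genes were higher by that much and 0.97% lower. Elovl6 had under 1 FPKM in every muscle library and was not compared. With ncls 8 of 9 were lower and 2 (Thrsp and Fasn) were more than 2-fold lower, with none more than 2-fold higher, where 2.53% of 9694 genes were lower by that much and 1.27% higher. The members' median was 0.46 with the diet and -0.56 with ncls, against 0.03 and 0.04 over all genes. Of all genes compared, 55.1% were higher with the diet and 55.5% with ncls.

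Scd1 stood at 18.5 FPKM in NCD-veh muscle, 43.2 with HFD-veh and 22.7 with HFD-ncls. Fasn stood at 2.24 FPKM in NCD-veh muscle, 4.10 with HFD-veh and 1.84 with HFD-ncls. Thrsp stood at 12.3 FPKM in NCD-veh muscle, 19.7 with HFD-veh and 6.91 with HFD-ncls. In each of these the HFD-veh library stood above both others. Acly went the same way on a low level, at 1.39, 2.45 and 1.63 FPKM, and Elovl6 lay near its limit of detection, at 0.0896, 0.330 and 0.0754 FPKM. Scd2 stood at 2.85, 3.61 and 1.94 FPKM, lowest with ncls.

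Acaca stood at 1.29, 1.13 and 1.33 FPKM in muscle of the 3 groups, with no step at the HFD-veh library. Srebf1 stood at 15.4, 14.7 and 13.9 FPKM. Mlxipl stood at 18.3, 21.0 and 17.6 FPKM. The carboxylase and both transcription factors thus differed by at most 0.25 on the log2 scale at either step, before any subtraction of other tissue. Me1 stood at 72.6, 99.7 and 77.8 FPKM, highest in HFD-veh. Acacb, the carboxylase of the mitochondrial membrane that is typical of muscle, stood at 45.7, 33.0 and 52.0 FPKM, far above Acaca and lowest in HFD-veh.

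With the diet Fasn and Scd1 had the highest changes of the 9 members compared in muscle, and with ncls Thrsp was lower by more than either. With the diet Fasn lay 0.51 and Scd1 0.89 above the median of the 7 others, and with ncls they lay 0.76 and 0.57 below it. With a pseudocount of 1 FPKM the Fasn gap with ncls was -0.49.

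The library that stood above the others, HFD-veh muscle, was also the one with liver markers. Relative to HFD-veh liver these 9 markers amounted to 0.665% of the liver level (0.331% to 0.795%), against 0.00263% in NCD-veh and 0.000665% in HFD-ncls muscle. Times the liver level of each gene, that share came to 8.45 of 43.2 FPKM for Scd1, 0.433 of 4.10 FPKM for Fasn, 5.90 of 19.7 FPKM for Thrsp and 0.530 of 2.45 FPKM for Acly. As a part of the muscle level this was 19.6% for Scd1, 10.6% for Fasn, 29.9% for Thrsp, 21.7% for Acly and 75.6% for Elovl6, and under 2% for Scd2, Me1 and Mlxipl. With the liver part subtracted, the diet change was 0.91 for Scd1, 0.68 for Fasn, 0.17 for Thrsp and 0.44 for Acly, and the ncls change -0.61, -0.96, -0.99 and -0.22. No member was then past 2-fold in either step.

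**Figure D3:**
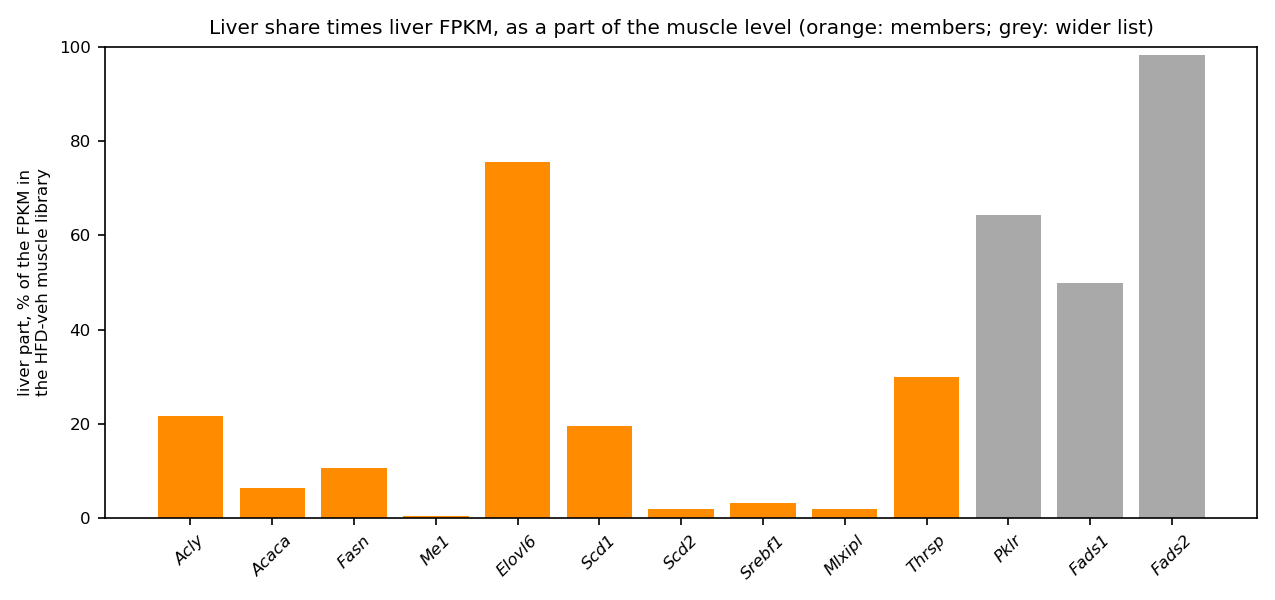
Liver share (0.665%) times the FPKM in HFD-veh liver, as a percent of the FPKM in HFD-veh muscle, for the 10 members (orange) and 3 genes of the wider list (grey). The bar reaches 75.6% for Elovl6 and 98.3% for Fads2, and 19.6% for Scd1 and 10.6% for Fasn.

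Most adipocyte markers were higher in HFD-veh than in NCD-veh muscle as well, 6 of 8 of them and 4 by more than 2-fold. The other 2 were lower, and Cfd was more than 2-fold lower, with a log2 change of -1.20. Over all genes compared, 3.14% were more than 2-fold higher and 0.97% lower. None of the 8 markers was at 0 in any muscle library. Adipoq in muscle amounted to 0.401%, 1.25% and 0.892% of its WAT level in the 3 groups. Plin1 amounted to 0.306%, 0.933% and 0.682%, and Cidec to 0.350%, 0.708% and 0.518%. Scd1 in muscle amounted to 0.295%, 0.992% and 0.578% of its WAT level, and Fasn to 0.496%, 0.949% and 0.447%. As a percent of WAT these 5 genes were all highest in HFD-veh, as were Lep and Retn, but the other 3 markers (Fabp4, Cfd and Pnpla2) were highest in HFD-ncls. For Cfd the WAT level was itself lower with the diet, with a log2 change of -3.64. Scd1 lay between Adipoq, Plin1 and Cidec in HFD-veh and HFD-ncls and just below them in NCD-veh. Fasn lay between them in HFD-veh, above them in NCD-veh and below them in HFD-ncls. These 3 of the 8 markers were picked after their values were seen. The 8 markers were far apart among themselves, from 0.0441% for Lep in NCD-veh to 19.8% for Pnpla2 in HFD-ncls muscle, and some of them, Pnpla2 for example, are known to be made by muscle too.

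The median of these markers put the fat share at 0.498%, 1.63% and 0.855%. That share times the WAT level came to 101% to 191% of the Fasn level and 148% to 169% of the Scd1 level in the muscle libraries, so that nothing was left of either after subtraction and their changes had no value. For Me1, Srebf1 and Mlxipl the same part was at most 7.26%. With the fat part subtracted, the ncls change was -2.36 for Thrsp and 0.77 for Acaca, against -1.50 and 0.22 without, and the diet change was 0.42 for Thrsp and 0.19 for Acly. Which cells held the Fasn and Scd1 RNA of the muscle libraries was not tested.

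**Figure D4:**
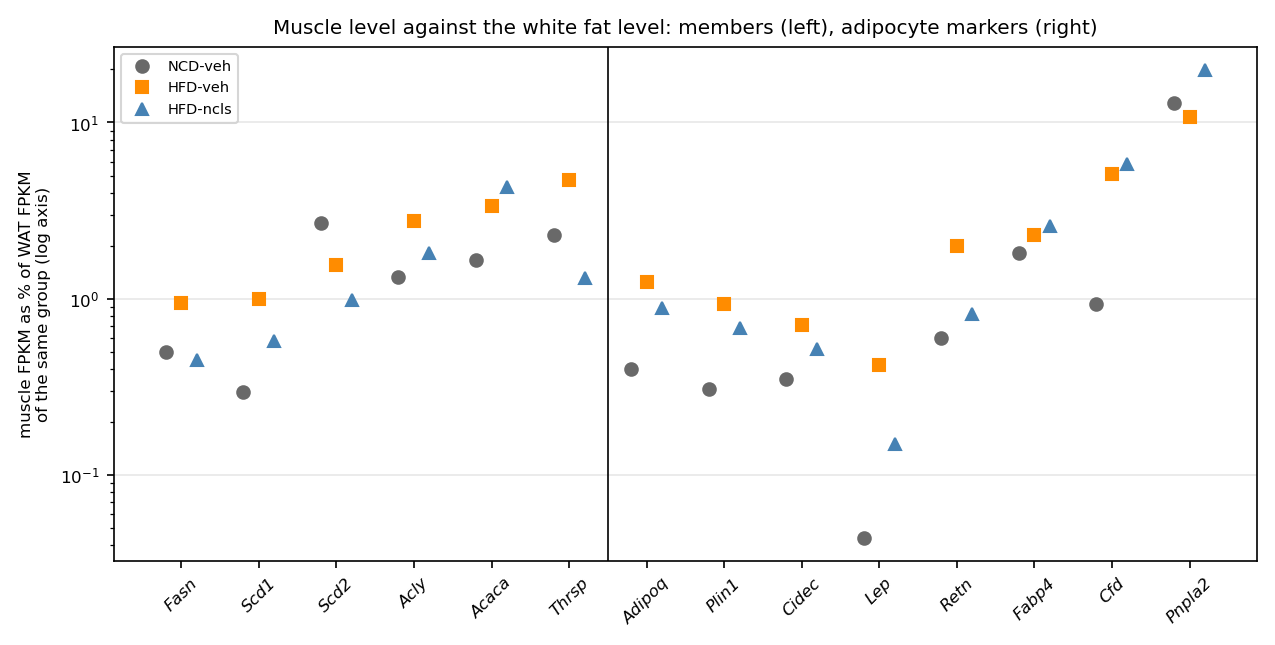
FPKM in muscle as a percent of the FPKM in WAT of the same group (log axis) for 6 members (left of the line) and 8 adipocyte markers (right); each point is 1 pair of libraries, with grey circles for NCD-veh, orange squares for HFD-veh and blue triangles for HFD-ncls. Fasn (0.496%, 0.949% and 0.447%) and Scd1 (0.295%, 0.992% and 0.578%) lie near Adipoq, Plin1 and Cidec, which were picked after their values were seen. Fabp4, Cfd, Retn and Pnpla2 lie above both genes in each group, all but Retn highest in HFD-ncls, and Lep lies below both.

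Neighbouring genes were read from a list of 27 further genes of lipogenesis and its control and from a list of cholesterol synthesis genes, of which 7 had a value. In liver with the diet, 11 of 26 compared genes of the wider list were more than 2-fold higher and 2 lower, with a median log2 change of 0.90. Of all genes compared, 2.86% were more than 2-fold higher and 2.27% lower with the diet, and 1% and 1.31% with ncls. Aacs, which makes acetoacetyl-CoA for lipid synthesis, stood at 2.26, 27.4 and 64.6 FPKM in liver of the 3 groups and was the 1 gene of the list more than 2-fold higher with ncls (log2 change 1.23). Pklr, the pyruvate kinase of liver, stood at 27.4, 119 and 159 FPKM. Fads2, a desaturase of polyunsaturated fatty acids, stood at 122, 518 and 601 FPKM.

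Elovl3 and Insig2 went the other way in liver, by -1.90 and -1.35. Insig2 holds SREBP in the endoplasmic reticulum, as does Insig1, which was higher by 1.26. All 7 cholesterol genes were more than 2-fold higher in HFD-veh than in NCD-veh liver, against 2.86% of all genes, with a median log2 change of 1.77. None of the 7 was past 2-fold with ncls, where the median was 0.38. Fdps, which makes farnesyl diphosphate, stood at 30.2, 136 and 199.6 FPKM.

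In BAT 22 of 25 genes of the wider list were lower in each of the steps, with medians of -0.37 with the diet and -0.20 with ncls. Those past 2-fold were Scd4, Elovl3, Scd3 and Insig1 with the diet and Scd3 and Scd4 with ncls. Of all genes compared, 44.7% were higher with the diet and 46.0% with ncls, and 2.01% and 1.7% were more than 2-fold lower. Scd3 and Scd4 share sequence with Scd1, and the ratio of Scd4 to Scd3 lay between 0.509 and 0.623 in the 9 fat and liver libraries, so their values may follow reads of other Scd genes. Slc25a1, the citrate carrier that supplies Acly, stood at 238, 145 and 84.7 FPKM and stepped down like Acly. Of the 6 cholesterol genes compared in BAT, all were lower with the diet and Sqle was more than 2-fold lower.

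In WAT the cholesterol genes went a different way from the members: 7 of 7 were higher with the diet, with a median of 0.93, and 3 were more than 2-fold higher, Fdps and Lss among them. Of all genes compared, 52.7% were higher and 5.24% more than 2-fold higher. The macrophage markers moved with the cholesterol genes, with 4 of 4 higher (median 0.86, Cd68 1.99, Emr1 1.08) and sums of 566, 799.8 and 1023 FPKM in WAT of the 3 groups. Their part in the WAT differences was not tested. Insig1 stood at 29.5, 105 and 152 FPKM there and was the 1 gene of 24 in the wider list past 2-fold with the diet. With ncls the 1 gene past 2-fold was Elovl3, at 0.242 FPKM without and 1.03 FPKM with the drug.

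In muscle 5 of 24 genes of the wider list were more than 2-fold higher with the diet, and 6 were more than 2-fold lower with ncls. Of all genes compared, 3.14% and 2.53% differed by that much in the same directions. Fads2 stood at 0.324, 3.51 and 0.191 FPKM and Fads1 at 0.667, 2.80 and 0.798 FPKM in muscle of the 3 groups, and the liver part came to 98.3% and 49.8% of their HFD-veh level. Pklr was listed at 0 in NCD-veh and HFD-ncls and at 1.23 FPKM in HFD-veh muscle, of which the liver part was 64.4%. Elovl5 and Slc25a1 were also more than 2-fold higher with the diet, with liver parts of 37.9% and 22.4%. With ncls Pnpla3, at 0.627 FPKM, was more than 2-fold lower than in HFD-veh muscle, as were Fads1, Fads2 and Slc25a1. The median of the list with the diet was 0.53, and 0.23 with the liver part subtracted.

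**Figure D5:**
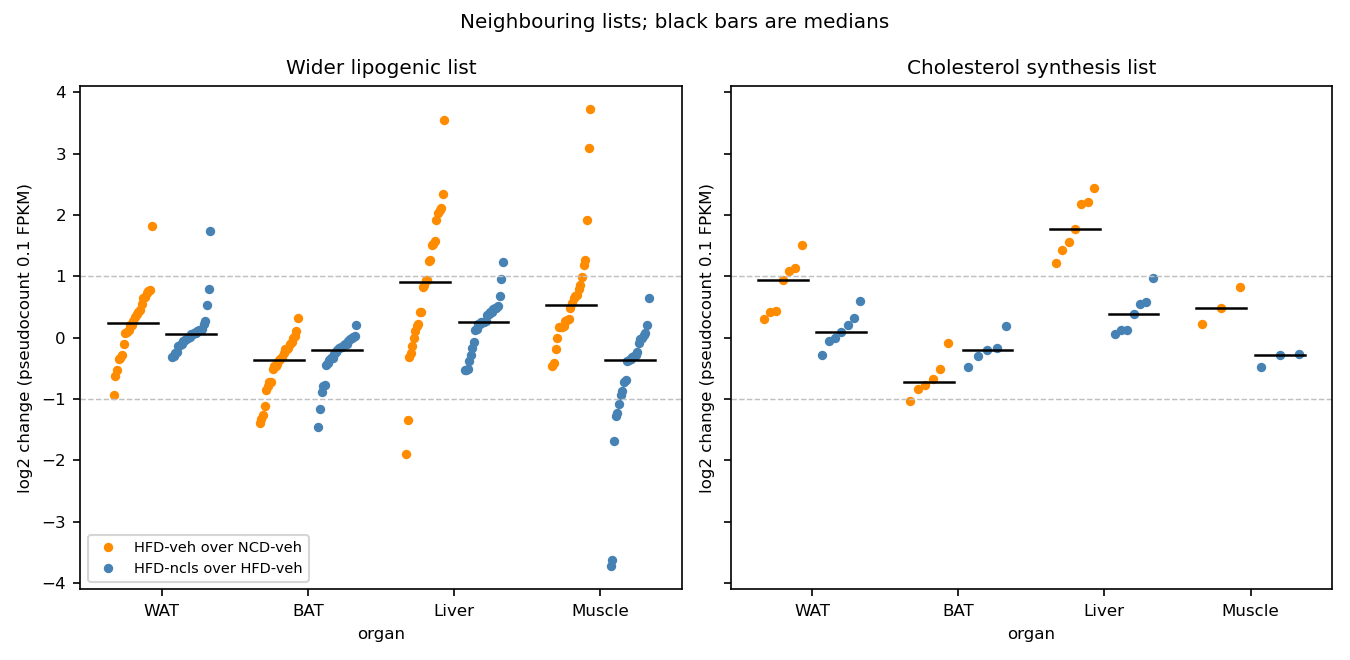
Log2 change (pseudocount 0.1 FPKM) of the genes of the wider lipogenic list (left) and the cholesterol synthesis list (right) in each organ, orange for HFD-veh over NCD-veh and blue for HFD-ncls over HFD-veh; each point is 1 gene, black bars are medians and dashed lines mark 2-fold. The liver medians with the diet were 0.90 and 1.77, and the muscle points beyond 3 on the log2 scale are Fads2, with a large liver part, and Pklr, listed at 0 in NCD-veh and HFD-ncls.

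As a description of likeness, log2 levels were centred on each organ's mean and correlated over the 12 libraries among 7636 genes with a mean of at least 1 FPKM in each organ. The 5 genes most like Fasn were Spag7 (Pearson's r 0.982), 4833439L19Rik (0.981), Prnp (0.974), Pacsin2 (0.973) and Tpgs2 (0.962). Acly came at rank 6 with 0.957, Thrsp at rank 20 with 0.920 and Me1 at rank 49 with 0.874. Srebf1 came at rank 112 with 0.831 and Scd1 at rank 128 with 0.824. Acaca (0.744) and Scd2 (0.694) came lower. Elovl6 had 0.946 but no rank, because its muscle level was under 1 FPKM. The 5 most like Scd1 were Cnih (0.965), Fam149b (0.946), Alas2 (0.943), Slc37a4 (0.936) and Rfwd2 (0.935), with Acly at rank 10 (0.910). Of all members, Mlxipl was least like either, at 0.109 for Fasn and -0.219 for Scd1. The 12 points share libraries and organs, and the large liver and BAT differences weigh most in them.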

How the data were processed

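RNA-seq was analysed for WAT, BAT, liver and quadriceps muscle of the NCD-veh, the HFD-veh and the HFD-ncls group, 1 library for each and 12 in all, grouped by the labels. The authors extracted RNA with TRIzol, sequenced on a HiSeq instrument, aligned reads to mm9 with TopHat and quantified RefSeq genes with Cufflinks. The deposited values are FPKM per gene symbol, already divided by length and depth, so a change in a few abundant genes can shift all others. How reads shared by paralogs were divided is not given in the sources used here. Of the 22276 symbols, 86 lacked a value somewhere and were left out there.

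Log2 ratios used a pseudocount of 0.1 FPKM and genes with at least 1 FPKM in at least 1 of the libraries compared. More than 2-fold was counted. No test or p-value was possible with 1 library per group. Depth was estimated from the steps of low values over genes with transcripts of at least 1500 bases, of which 72.7% to 78.6% lay within 0.1 of a whole fragment. These estimates are approximate and no count test rests on them. RNA of a source organ within another organ was estimated as the median, over marker genes, of the level there divided by the level in the source organ of the same group.

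The members, gene lists and rules were chosen with earlier results of these data known. All 10 members were named, with genes of the wider and cholesterol lists past 2-fold, a few others of these lists chosen after their values were seen, and the 5 genes most like Fasn and Scd1. Some genes of these lists are not reported here by name. Alternatives were pseudocounts of 0.01 and 1, no filter and at least 5 FPKM, rescaling to a median change of 0, subtraction of the liver or fat share and, added after seeing the data, subtraction of the muscle share in BAT. Python 3.11.15, numpy 2.4.6, pandas 2.3.3 and matplotlib 3.10.9 were used, and the code was tested on simulated data.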

Additional observations from a re-analysis of the deposited data

Results flagged for a closer look

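Under the same contrast, 4 members were past 2-fold in opposite directions in different organs. With 1 library per organ and group none of these differences was tested. With the diet, the log2 change of Fasn in liver (2.51) exceeded that in BAT (-1.02) by 3.53, and that of Scd2 in liver (1.39) exceeded that in BAT (-1.45) by 2.84. Acaca was higher in liver (1.44) and lower in WAT (-1.22), 2.65 apart. Scd1 was higher in muscle (1.22) and lower in BAT (-1.20), 2.42 apart, and in muscle the values with liver and fat RNA stand beside it in the report. With ncls, Fasn was higher in liver (1.31) and lower in muscle (-1.11), 2.43 apart. The muscle levels of Fasn were low, at 4.10 FPKM in HFD-veh and 1.84 FPKM in HFD-ncls. Its muscle change was -0.96 with the liver part subtracted, and nothing was left of it with the fat part subtracted.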

How the results depend on the processing

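Of 302 recomputed list medians, member counts and gaps, 289 stayed close to the value given (within 0.25 on the log2 scale, or a count within 1.5 times), 13 moved and none reversed. Some of the 302 could not move. A gap is the same after rescaling, which shifts all genes alike, and a filter that drops no member leaves the members' values as they were. In BAT with the diet, the count of 3 members more than 2-fold lower was 2 after rescaling, which fell within the limit for counts. All 13 results that moved were in muscle. With the diet, the members' median of 0.46 was 0.19 after subtraction of the fat share, over the members then left. The count of 1 member more than 2-fold higher was 2 without the filter and 0 after subtraction of the liver share. It was also 0 after subtraction of the fat share, but only because that member, Scd1, was left at 0 and dropped. The wider list's median of 0.53 was 0.17 at a filter of 5 FPKM, 0.23 without the liver share and 0.0027 without the fat share. With ncls, the members' median of -0.56 was -0.22 without the fat share, again over the members left. The count of 2 members more than 2-fold lower was 1 with a pseudocount of 1 or with a filter of 5 FPKM, and 0 without the liver share. It was 1 without the fat share, where Fasn was dropped and Thrsp stayed. The Fasn gap of -0.76 was -0.49 with a pseudocount of 1. Subtraction of the fat share left Fasn and Scd1 at 0 in muscle, so no change was computed for them, nor for Scd2. The members' medians and counts without the fat share leave these genes out and do not describe them. Counts over all genes depended on the filter: the 16 counts ran from 26 to 640 as given, from 128 to 1087 with no filter, from 7 to 331 at 5 FPKM and from 12 to 390 with a pseudocount of 1. Leaving out a replicate was not possible with 1 library per group. Approximate depth limits Elovl6 in muscle, at about 12 to 55 fragments. The Scd family values rest on how shared reads were divided, and feeding state, which lipogenic genes follow, is not given.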

Other observations

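Between the HFD-ncls and NCD-veh livers, Thrsp was 57.1-fold higher with the HFD and ncls, rank 1 of 9961 genes, and Fasn 14.2-fold higher, rank 8. In muscle the HFD-ncls and NCD-veh libraries, in which the hepatocyte markers summed to 1.02 and 2.31 FPKM, lay within 0.30 of each other on the log2 scale for Fasn (-0.27) and Scd1 (0.29), while Thrsp was lower by 0.82 and Scd2 by 0.53.

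Acaca and Acacb, the carboxylases known for lipogenesis and for control of fatty acid oxidation, were divided differently in each organ. The ratio of Acaca to Acacb FPKM was 5.85, 3.66 and 3.15 in WAT of the 3 groups, 0.734, 0.601 and 0.264 in BAT, 1.32, 0.944 and 0.621 in liver, and between 0.0256 and 0.0341 in muscle. In WAT, BAT and liver it was highest in NCD-veh and lowest in HFD-ncls.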
